A study of Mus musculus with 16 samples.

Results

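The 10 genes described here encode transcription factors that direct the formation of specialised cell types outside the thymus and that are also used by mimetic cells. They are Hnf4a, Hnf4g, Spib, Sox8, Foxj1, Trp73, Foxi1, Foxa2, Grhl3 and Myog. They were chosen by symbol, and all 10 were found among the 89407 rows of the count table, 53464 of which are Ensembl genes. The table holds polyadenylated RNA from 16 libraries of 8 mice, with 1 library of mature and 1 of immature medullary thymic epithelial cells (mTEC) from each mouse. The mice were labelled C57BL/6 and 4 to 6 weeks old, while the study's methods place both mutant lines on a mixed background of 129S2/Sv and C57BL/6J. All mice carried loxP-flanked alleles of Rbfox1 (Rbfox1 lox/lox) or of Rbfox2 (Rbfox2 lox/lox), genes for RNA-binding proteins that regulate splicing. The thymus knockout (tKO) mice also carried 1 Foxn1 allele with Cre (Foxn1 wildtype/cre), so that Cre was driven by the Foxn1 locus of thymic epithelium, while the control mice were Foxn1 wildtype/wildtype. Each line had 2 tKO and 2 control mice, and in each pair of mice 1 was female and 1 male. Cre and loss of the floxed gene always went together and cannot be told apart. About 10000 cells of each population were sorted as CD45-, EpCAM+, Ly51- and UEA+ with high (mature) or low (immature) MHC class II.

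The mTEC present proteins of many other tissues to developing T cells. A part of this display comes from mimetic cells, which are mTEC that take on the expression programme of an outside cell type with the lineage factor of that cell type. HNF4A and HNF4G are nuclear receptors of the gut epithelium. SPIB and SOX8 act in microfold cells, the gut cells that sample antigens. FOXJ1 drives the formation of motile cilia, and p73, the product of Trp73, acts upstream in multiciliated cells. FOXI1 directs ionocytes, which express proton pumps and chloride channels. FOXA2 acts in airway and other endodermal epithelia, GRHL3 in the differentiation of the epidermis, and MYOG (myogenin) in muscle. In these bulk samples a larger number of mimetic cells and more RNA of a factor in each cell cannot be told apart.

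In GENCODE M21 on GRCm38, Hnf4a lies on chr2:163506808-163572910, Hnf4g on chr3:3508030-3658052 and Myog on chr1:134289989-134292548, all on the plus strand. The other 7 are on the minus strand, Spib on chr7:44525993-44532071, Sox8 on chr17:25565892-25570686, Foxj1 on chr11:116330704-116335399, Trp73 on chr4:154056253-154140208, Foxi1 on chr11:34204338-34208089, Foxa2 on chr2:148042877-148046969 and Grhl3 on chr4:135541888-135573630. All 10 are annotated as protein-coding.

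Promoter windows were taken from RefSeq for the build GRCm38.p6, from 250 bases before to 50 bases after each start. Of the 10 genes, 8 had at least 1 window, and there were 12 windows in all. A stretch of Myog is shown because Myog was the only factor called lower with maturation in control mice. In the Myog stretch, on chr1:134289754-134289988 of the plus strand, capitals mark an E-box (CANNTG), the kind of sequence bound by myogenic factors.
Myog: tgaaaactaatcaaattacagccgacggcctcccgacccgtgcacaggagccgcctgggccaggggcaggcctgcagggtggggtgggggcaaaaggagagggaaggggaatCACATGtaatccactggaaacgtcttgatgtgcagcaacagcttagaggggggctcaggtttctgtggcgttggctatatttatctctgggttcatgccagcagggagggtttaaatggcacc

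The E-box shown for Myog begins 138 bases before its RefSeq start. The whole window held 2 E-boxes, and the other, 12 bases before the start, lies beyond the stretch shown. Searched on both strands, at least 1 E-box was present in 72.3% of the 32851 RefSeq promoter windows. The match is a description of the sequence. Binding was not measured.

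The total count per library was 3737884 to 4636367 in mature mTEC and 1506134 to 2430287 in immature mTEC, so that depth and population went together. The authors also down-sampled the reads of the populations to different numbers. Levels are given as CPM, the usual count scaled to library size, after TMM normalization, which allows for the different totals. Rbfox2 was lower in Rbfox2 tKO than in control mice, with a log2 fold change of -2.14 in mature mTEC (SE 0.17, adjusted p = 1.31e-06) and of -1.69 in immature mTEC (SE 0.19, adjusted p = 0.000526). Rbfox1 had 126 to 247 counts over the 4 mature libraries of the Rbfox1 line. Its log2 fold change in tKO mice was -0.66 in mature mTEC (SE 0.14, adjusted p = 0.242) and -0.09 in immature mTEC (SE 0.11, adjusted p = 0.947), so the targeted gene was not called in that line. The counts are per gene and cover exons outside the deleted part too. Of the mTEC markers, Krt5 was lower (log2 fold change -2.87) and Aire (3.08) and Cd80 (3.34) were higher in mature mTEC of control mice, and all 3 were called. The lines also differed, with 414 to 730 Aire counts in immature libraries of the Rbfox1 line and 28 to 78 in those of the Rbfox2 line. Ccl21a had no count in any mature library, but its counts were too few for the test between the stages.

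**Figure D1:**
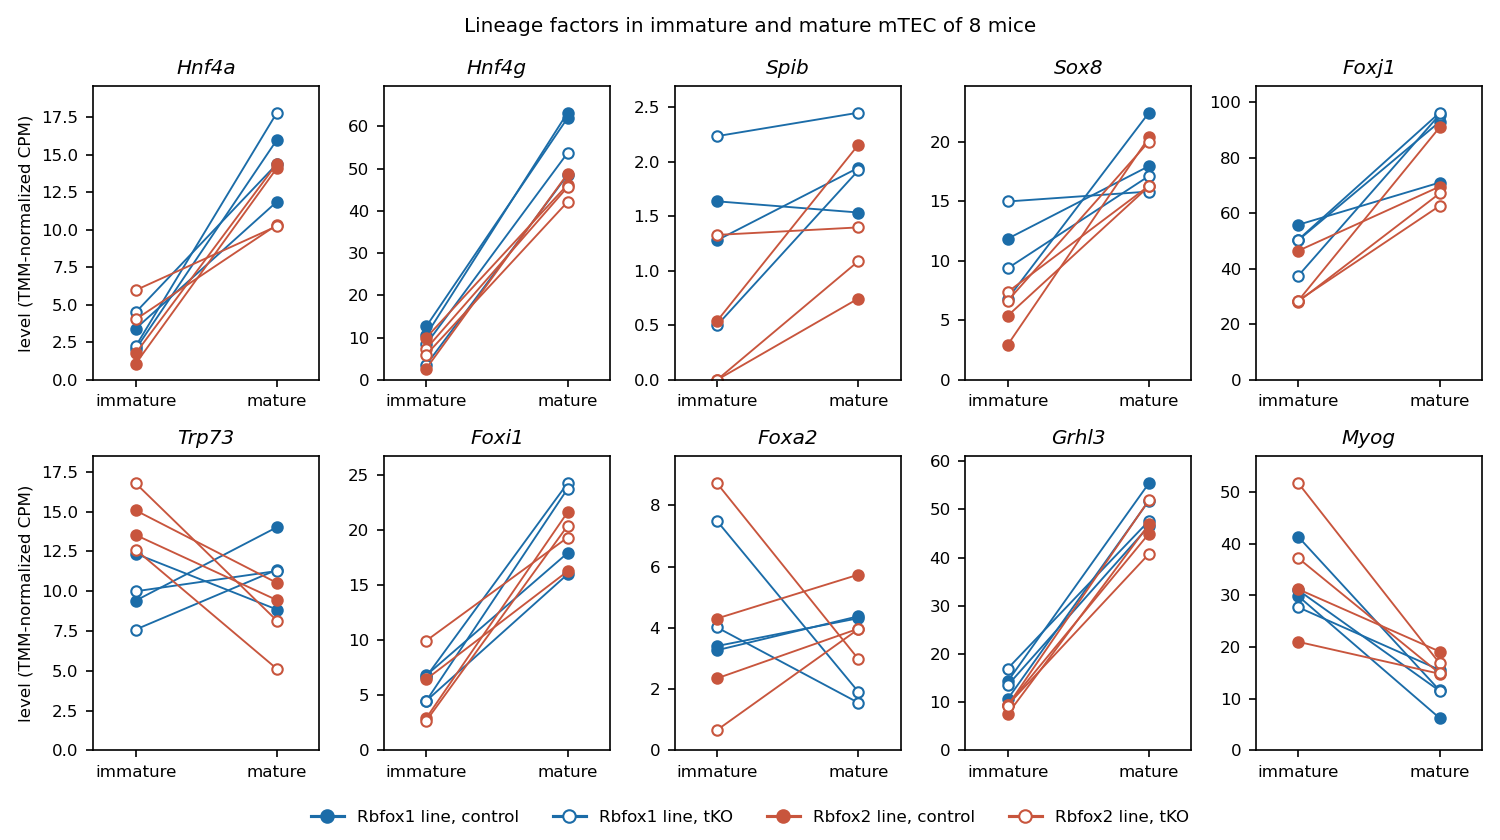
Levels of the 10 factors in TMM-normalized CPM in immature and mature mTEC, 1 panel per gene with its own scale from 0, with a line joining the 2 libraries of each of the 8 mice (colour, line; filled, control; open, tKO). All 8 lines rise for Hnf4a, Hnf4g, Sox8, Foxj1, Foxi1 and Grhl3, all 8 fall for Myog, and those of Spib, Trp73 and Foxa2 are mixed.

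To ask how the lineage factors differ between the 2 stages, mature was compared with immature mTEC in the 4 control mice. Hnf4a, Hnf4g, Sox8, Foxi1 and Grhl3 were higher in mature mTEC and Myog was lower. A gene was called where edgeR's quasi-likelihood test gave a p under 0.05 after Benjamini-Hochberg adjustment and its level differed by more than 1 on the log2 scale. Every adjusted p here is from that test unless DESeq2 is named. Of the 10 factors 9 had enough counts to be tested, 5 were called higher and 1 lower. Over all 16750 genes tested, 26.4% were called higher and 11.1% lower, and the median log2 fold change was 0.04, against 1.44 over the 9 factors. Hnf4a, called higher, passed the filter on low counts through its mature libraries alone, which favours a higher count and median. With at least 10 counts in every library, 1 of 4 tested factors was called higher and 1 lower, with a median of 0.44. Of all 11071 genes tested under that filter, 1056 were called higher and 1092 lower. Over all 16 libraries, 6 factors had every mature library above every immature library, which held for 29.7% of the 21028 genes with a mean of at least 1 CPM in a population. Only Myog among the factors had every mature library below every immature library, as 12.5% of those genes did.

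Both gut factors rose. In the 4 control mice Hnf4g had 63.2, 62.0, 48.8 and 46.2 CPM in mature mTEC and 10.7, 12.7, 2.69 and 10.001 CPM in immature mTEC. Even the lowest mature library was more than any immature library by a wide margin. The log2 fold change was 2.57 (SE 0.19, adjusted p = 1.97e-08). Hnf4a had 11.9, 15.99, 14.1 and 14.4 CPM in mature mTEC of the control mice and 3.41, 2.04, 1.08 and 1.76 CPM in immature mTEC, which were 2 to 8 counts. The control groups did not overlap, and the log2 fold change was 2.66 (SE 0.30, adjusted p = 1.55e-06). Hnf4a passed the filter on low counts through its mature libraries alone. Over all 8 mice the mature value was the higher one in each mouse for both genes, with a mean log2 difference of 2.79 ± 0.64 (SD, n = 8 mice) for Hnf4g and 2.07 ± 0.88 for Hnf4a. A two-sided exact permutation test that flips the sign of each mouse gave p = 0.00781 for each (n = 8), the smallest p it can give, and is called the sign-flip test from here.

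Of the microfold factors, Sox8 rose and Spib was too low to test across genes. Sox8, of the SoxE group, had 22.4, 17.96, 16.3 and 20.4 CPM in mature and 6.82, 11.9, 5.38 and 2.94 CPM in immature mTEC of the control mice. These groups did not overlap, although the immature values ranged widely, and the log2 fold change was 1.44 (SE 0.25, adjusted p = 0.000146). Sox8 shares 329 exon bases with an antisense gene, 2810468N07Rik, which had 354 counts over all libraries against 757 for Sox8. Libraries were stranded, but the sources used here do not give the strand setting of the counting. Spib, an ETS factor also found in B cells and plasmacytoid dendritic cells, had 3 to 11 counts in mature and 0 to 5 in immature libraries. In 7 of 8 mice its CPM was higher in the mature library, with a mean log2 difference of 0.77 ± 0.70 (SD, n = 8 mice; exact sign-flip permutation test, p = 0.0234). Without a filter on counts its log2 fold change in control mice was 0.80 (SE 0.57, edgeR adjusted p = 0.392). The summed level of the 5 B cell markers moved with it, at 60.7 to 79.6 CPM in mature and 7.38 to 15.9 CPM in immature libraries, and all 5 were called higher in mature mTEC of control mice. The summed level of the 4 dendritic cell markers was 17.7 to 28.3 CPM in mature and 0 to 2.23 CPM in immature libraries, where Flt3 and Siglech had no count in control mice. The summed level of 6 thymocyte and T cell markers was 45.4 to 58.6 CPM in mature and 3.41 to 23.3 CPM in immature libraries. The part of these cells in the Spib values was not tested.

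The factors of ciliated cells did not move alike. Foxj1 was the most abundant factor per length in mature mTEC, with 71.0, 92.9, 90.9 and 69.6 CPM in mature and 55.8, 50.3, 28.5 and 46.5 CPM in immature mTEC of the control mice. It was higher in the mature library of each of 8 mice, by a mean log2 difference of 1.01 ± 0.42 (SD; exact sign-flip permutation test over n = 8 mice, p = 0.00781). In control mice its log2 fold change of 0.80 (SE 0.15, adjusted p = 0.000275) passed the adjusted p but not the fold threshold. Trp73 had 8.85, 14.0, 10.5 and 9.44 CPM in mature and 12.4, 9.41, 15.1 and 13.5 CPM in immature mTEC of the control mice. These overlapped, and the log2 fold change was -0.25 (SE 0.22, adjusted p = 0.343). It was higher in the mature library in 3 of 8 mice, with a mean log2 difference of -0.30 ± 0.67 (exact sign-flip permutation test over n = 8 mice, p = 0.273). The 4 mice of the Rbfox1 line alone gave 0.20, against the direction of all mice. That split of the mice was chosen after the data were seen. Its antisense neighbour Trp73os shares 280 exon bases but had only 3 counts in all.

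Foxi1 and Grhl3 were called higher in mature mTEC. Foxi1 had 17.9, 15.99, 16.3 and 21.6 CPM in mature and 6.82, 4.50, 6.46 and 2.94 CPM in immature mTEC of the control mice, without overlap. Its log2 fold change was 1.72 (SE 0.24, adjusted p = 1.78e-05). Grhl3 had 51.8, 55.4, 46.9 and 45.0 CPM in mature and 10.7, 14.3, 7.54 and 9.41 CPM in immature mTEC of these mice. Its log2 fold change of 2.20 had the smallest error of the 9 factors (SE 0.15, adjusted p = 4.96e-09). Over the 8 mice the mean log2 difference was 1.84 ± 0.67 for Foxi1 and 2.07 ± 0.36 for Grhl3 (SD, n = 8), each higher in 8 of 8 mice (exact sign-flip permutation test, p = 0.00781).

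Foxa2 was low at both stages. In control mice it had 4.32, 4.38, 5.74 and 3.97 CPM in mature and 3.41, 3.27, 4.31 and 2.35 CPM in immature mTEC, from 4 to 24 counts. These overlapped, and the log2 fold change was 0.41 (SE 0.31, adjusted p = 0.26). Over the 8 mice 5 were higher and 3 lower in the mature library, with a mean log2 difference of -0.08 ± 1.24 (exact sign-flip permutation test over n = 8 mice, p = 0.852).

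Myog fell. It had 6.26, 11.6, 14.8 and 19.1 CPM in mature and 29.8, 41.3, 21.0 and 31.2 CPM in immature mTEC of the control mice. The groups did not overlap, although the highest mature value (19.1 CPM) and the lowest immature value (21.0 CPM) were close. The log2 fold change was -1.34 (SE 0.27, adjusted p = 0.000437). It was lower in the mature library of each of 8 mice, by a mean log2 difference of -1.28 ± 0.58 (SD; exact sign-flip permutation test over n = 8 mice, p = 0.00781). The other myogenic factors did not share this pattern in their raw counts. Myod1 had 7 to 16 counts in mature and 0 to 3 in immature libraries, Myf6 had 6 to 13 and 0 to 2, and Myf5 had 0 to 5 and none. All 3 had too few counts for the test, and they were named after their values were seen. Fibroblast and endothelial genes moved in the direction of Myog, with 4 of the 5 (Dcn, Pdgfra, Pecam1 and Cdh5) called lower in mature mTEC of control mice and Col1a1 at 0.41. Their summed level was 266 to 307 CPM in mature and 202 to 366 CPM in immature libraries of the Rbfox1 line, and 319 to 374 and 865 to 1287 CPM in the Rbfox2 line. Myog was lower in mature mTEC in every mouse of both lines. The part of these cells in the Myog values was not tested.

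**Figure D2:**
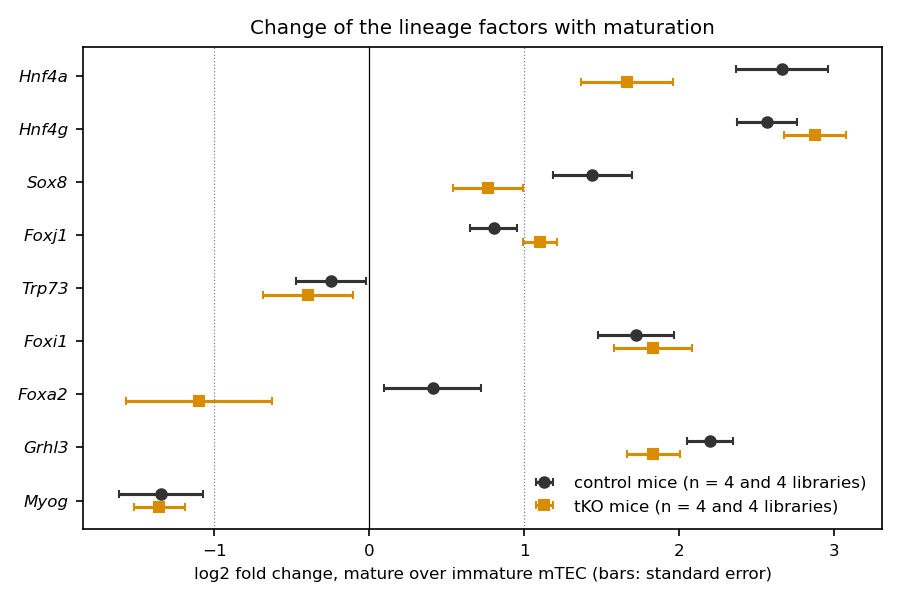
Log2 fold change of mature over immature mTEC for the 9 tested factors in control (circles) and tKO mice (squares), 4 libraries of each stage, with bars of 1 standard error and dotted lines at the fold threshold. Hnf4a, Hnf4g, Foxi1 and Grhl3 lie right of the threshold and Myog left of it in both, while Foxa2 lies on opposite sides of 0.

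The same comparison in the 4 tKO mice called 5 of 9 tested factors higher and 2 lower. Of all 16578 genes tested, 25.9% were called higher and 12.0% lower. The rises were 1.66 for Hnf4a (SE 0.30, adjusted p = 8.65e-05), 2.88 for Hnf4g (SE 0.20, adjusted p = 4.72e-10), 1.099 for Foxj1 (SE 0.11, adjusted p = 7.7e-08), 1.83 for Foxi1 (SE 0.25, adjusted p = 4.13e-06) and 1.83 for Grhl3 (SE 0.17, adjusted p = 2.92e-08). Myog fell by 1.36 on the log2 scale (SE 0.17, adjusted p = 1.00e-06). Sox8 had 17.1, 15.8, 16.3 and 20.02 CPM in mature and 9.38, 14.99, 7.38 and 6.64 CPM in immature mTEC of the tKO mice. Its log2 fold change of 0.77 (SE 0.23, adjusted p = 0.00645) was under the fold threshold. Without the immature library of Rbfox1 tKO replicate 3, the library at 14.99 CPM, it was 1.04 and Sox8 was called. Trp73 had a log2 fold change of -0.40 (SE 0.29, adjusted p = 0.242).

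Foxa2 was called lower in mature mTEC of the tKO mice. It had 1.56, 1.92, 2.99 and 3.96 CPM in mature and 4.02, 7.49, 8.73 and 0.664 CPM in immature mTEC of these mice. The lowest value of all was an immature library with 1 count, from Rbfox2 tKO replicate 2, so the groups overlapped. The log2 fold change was -1.102 (SE 0.47, adjusted p = 0.0475). The call was lost with mouse as a replicate block (-1.05, adjusted p = 0.0868), with DESeq2 (-1.08, adjusted p = 0.125), with DESeq2 size factors, with library totals, and without any of 6 of the 8 libraries. Without the immature library of Rbfox1 tKO replicate 3 the log2 fold change was -0.78 and without that of Rbfox2 tKO replicate 2 it was -1.57. Over all settings the adjusted p was 0.00164 to 0.2.

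The difference between the maturation effects of tKO and control mice was tested as an interaction, by the adjusted p alone. No factor was called. Of all 17442 genes tested 0% were called, while 907 had an unadjusted p under 0.05, and DESeq2 also called 0. Of the 9 factors 3 had an unadjusted p under 0.05. The difference for Foxa2 was -1.54 (SE 0.58, unadjusted p = 0.0144), for Hnf4a -1.20 (SE 0.46, unadjusted p = 0.0146) and for Sox8 -0.73 (SE 0.34, unadjusted p = 0.043), with adjusted p from edgeR of 0.886, 0.886 and 0.957. The effects of both groups of mice were therefore not shown to differ.

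The levels of different factors were compared per kilobase of merged exons, and only as a description. In mature mTEC of control mice Foxj1 was highest, at 30.9 ± 4.77 CPM per kb (SD, n = 4 mice), followed by Hnf4g at 20.9 ± 3.35, Grhl3 at 17.8 ± 1.70, Myog at 8.67 ± 3.63, Foxi1 at 7.61 ± 1.099, Sox8 at 6.18 ± 0.87, Hnf4a at 2.92 ± 0.35, Foxa2 at 1.94 ± 0.33, Trp73 at 1.93 ± 0.42 and Spib at 0.556 ± 0.217. The ranges of Hnf4g and Grhl3 overlapped, as did those of Myog and Foxi1, of Foxi1 and Sox8, and of Foxa2 and Trp73. The other neighbours in this order had separate ranges, those of Hnf4a (2.46 to 3.31) and Foxa2 (1.68 to 2.42) only just. In immature mTEC of the same mice Myog was highest, at 20.6 ± 5.56 CPM per kb, followed by Foxj1 at 17.3 ± 4.50, Grhl3 at 3.76 ± 1.02, Hnf4g at 3.42 ± 1.66, Trp73 at 2.28 ± 0.43, Foxi1 at 2.20 ± 0.77, Sox8 at 2.17 ± 1.21, Foxa2 at 1.41 ± 0.34, Hnf4a at 0.43 ± 0.20 and Spib at 0.301 ± 0.256. Here only 2 neighbouring pairs had separate ranges, Foxj1 (10.9 to 21.3) above Grhl3 (2.70 to 5.13) and Foxa2 (0.993 to 1.82) above Hnf4a (0.223 to 0.706). Hnf4g was the second most abundant factor in mature mTEC on this scale, while its paralog Hnf4a was the seventh.

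Genes that belong to the same outside cell types were looked at beside their factors, in lists of known genes chosen with earlier results of these data known. Over all genes tested in control mice 26.4% were called higher and 11.1% lower. Genes with few counts in immature mTEC could pass the filter through their mature libraries alone. In control mice all 10 enterocyte genes were called higher in mature mTEC, with a median log2 fold change of 4.02. Among them were Apob (4.996), a protein of lipid particles, and Fabp2, a fatty acid carrier with 47 to 80 counts in mature and 0 to 4 in immature libraries of control mice. Of the 8 microfold genes 5 were called higher and none lower, with a median of 1.44, led by Tnfrsf11b (2.55), a decoy receptor for RANKL, and the chemokines Ccl20 (1.75) and Ccl9 (1.64). Gp2, a microfold receptor for bacteria, was at 0.54 (adjusted p = 0.00456).

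Of the 10 ciliated cell genes 4 were called higher, beside 26.4% of all genes tested. The 4 were the dynein genes Dnaic2 (3.37), Dnaic1 (1.89), Dnah9 (1.86) and Dnah5 (1.70). The other 6, among them Rsph1 (0.35), Tekt1 (0.62) and Tmem212 (-0.72), were not called, and the median over the 10 was 0.75. Of the 7 ionocyte genes 6 were called higher, with a median of 2.51, among them Stap1 (3.10) and Bsnd, which encodes a chloride channel subunit and had 18 to 21 counts in mature and 0 to 2 in immature libraries of control mice. In the comparisons of tKO with control mice all 7 were tested in mature mTEC but only 2 in immature mTEC. Ionocyte genes could thus enter the maturation test through their mature libraries alone, which favours a higher count and median. Atp6v1c2, a subunit of the proton pump, was at -0.97 (adjusted p = 0.00184). Of 8 tested airway secretory genes 6 were called higher and 1 lower. Muc5ac (3.60), Bpifb1 (3.48) and Tff3 (2.49) were highest, and the mucin gene Muc5b was lower (-1.02). Foxa2, the factor set beside these genes, was not called.

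**Figure D3:**
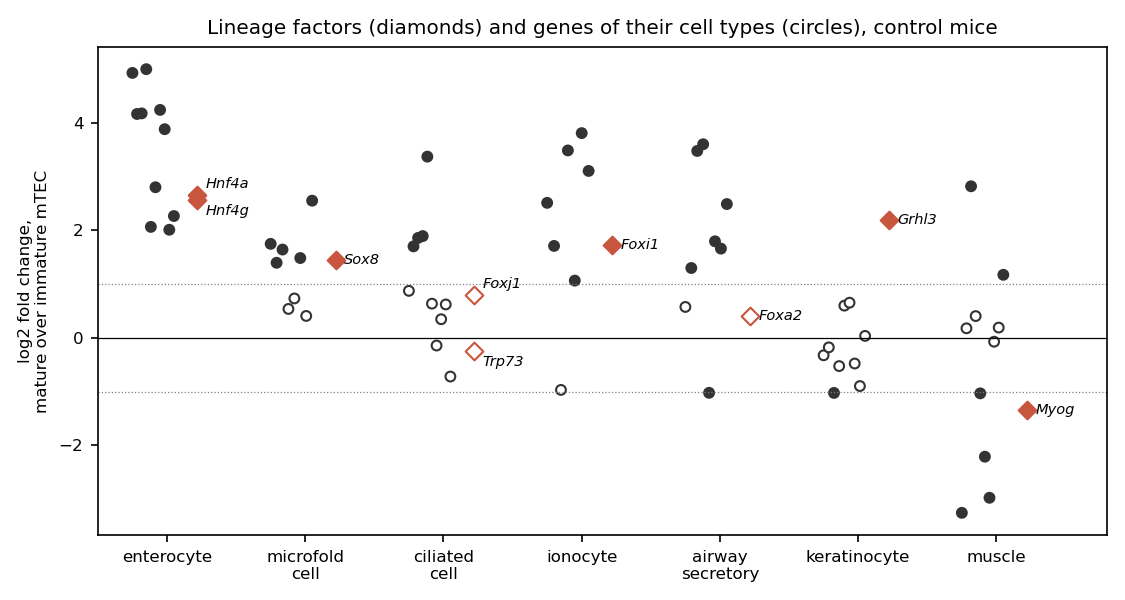
Log2 fold change of mature over immature mTEC in control mice for genes of 7 outside cell types (circles) and their factors (diamonds; Spib had too few counts), filled where called and open where not, with dotted lines at the fold threshold. All enterocyte genes lie above the threshold beside Hnf4a and Hnf4g, while the keratinocyte genes lie around 0 below Grhl3 and the muscle genes lie on both sides.

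The keratinocyte genes did not rise with Grhl3. None of the 9 tested was called higher and Flg (filaggrin, a protein of the cornified layer) was called lower (-1.02, adjusted p = 0.00179), with a median of -0.33. Krt1 was at 0.60 (adjusted p = 0.00906) and Krt10 at 0.65 (adjusted p = 0.0149), both keratins of the layers above the basal one. Lor, at -0.90 (adjusted p = 0.00349), and Krtdap, at -0.48 (adjusted p = 0.0116), went the other way and were not called either. The muscle genes split, with 2 of 10 called higher and 4 lower, beside 26.4% and 11.1% of all genes tested. Acta1 (-3.25) and Myl1 (-2.97), genes of the contractile filaments, fell, as did Mybpc1 (-2.21) and Des (-1.03). Chrna1 (2.82), a subunit of the acetylcholine receptor, and Ttn (1.17), the gene of titin, rose. In tKO mice the counts called higher and lower were 10 and 0 of 10 enterocyte, 5 and 0 of 8 microfold, 5 and 0 of 10 ciliated, 4 and 1 of 6 tested ionocyte, 4 and 1 of 8 tested airway secretory, 0 and 0 of 9 tested keratinocyte and 2 and 4 of 10 muscle genes. Over all genes tested in tKO mice 25.9% were called higher and 12.0% lower.

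Among 30 other lineage factors and paralogs, 24 were tested in control mice, 14 were called higher and 3 lower, with a median log2 fold change of 1.79. Over all genes tested 26.4% were called higher and 11.1% lower. In the comparisons of tKO with control mice, 25 of the 30 had enough counts to be tested in mature mTEC and 14 in immature mTEC. Such genes could thus enter the maturation test through their mature libraries alone, which favours higher calls and a higher median. Gmnc, a regulator of multiciliated cells upstream of Foxj1, was called higher, with 55 to 94 counts in mature and 0 to 3 in immature libraries of control mice. Sox10, of the same Sox group as Sox8, was called higher with 26 to 43 and 0 to 2 counts. Both passed the filter through their mature libraries and were near 0 in immature mTEC, so that their fold is not given. The third gene of that group, Sox9, was at -0.94 (adjusted p = 1.03e-07). Within families the members moved differently. Grhl2 (-1.35) and Trp63 (-2.03) were called lower, while Grhl3 rose and Trp73 was not called, and Foxa1 (1.78) was called higher while Foxa2 was not. The ETS factors Spic (2.69) and Spi1, the latter with 57 to 82 counts in mature and 0 to 4 in immature libraries, were called higher, and both are also known from blood cells. Neurod1 had no count in any library, and Ascl3, another ionocyte factor, had 0 to 2 counts.

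To ask whether loss of Rbfox1 or Rbfox2 changed the lineage factors, tKO mice were compared with the controls of their line. No factor was called in any of these comparisons, in which 9 factors were tested in mature and 8 in immature mTEC. In mature mTEC 0.0166% of the 18021 genes tested were called in the Rbfox1 line and 0.0277% in the Rbfox2 line. In immature mTEC 0.0306% and 0.0536% of the 13060 genes tested were called. DESeq2 called no factor either. Over both lines together 0.0166% of genes were called in mature and 0.0306% in immature mTEC, and again no factor was. At an unadjusted p under 0.05 there were 4 factors in mature mTEC of the Rbfox1 line, 1 in that of the Rbfox2 line, none and 1 in immature mTEC of these lines, and 3 and none over both lines. Of all genes tested, 604 and 962 of 18021 had such a p in mature mTEC of the Rbfox1 and the Rbfox2 line, 770 and 816 of 13060 in immature mTEC, and 810 and 976 over both lines in mature and immature mTEC.

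**Figure D4:**
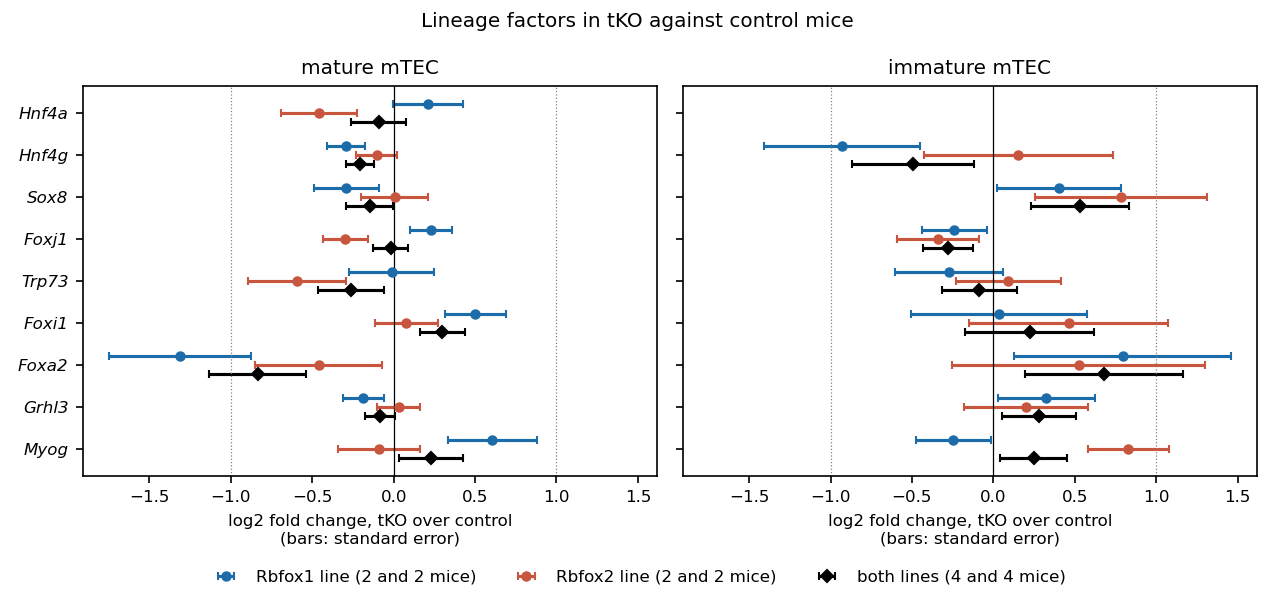
Log2 fold change of tKO over control mice for the factors in mature (left) and immature mTEC (right), in each line with 2 and 2 mice and over both lines with 4 and 4 mice, with bars of 1 standard error and dotted lines at the fold threshold. Most bars of the mature mTEC are short and near 0, Foxa2 lies lowest there, and the bars are longer in immature mTEC, where Hnf4a had too few counts to be tested.

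The largest of these differences was that of Foxa2 in mature mTEC of the Rbfox1 line. It had 1.56 and 1.92 CPM in the tKO mice (7 and 8 counts) against 4.32 and 4.38 CPM in the controls (20 counts each). Both tKO libraries lay under both controls, with a log2 fold change of -1.31 (SE 0.44, unadjusted p = 0.00719, edgeR adjusted p = 1 to 3 decimals). In mature mTEC of the Rbfox2 line Foxa2 had 2.99 and 3.96 CPM in tKO against 5.74 and 3.97 CPM in control mice, a log2 fold change of -0.46 (SE 0.39). Over both lines it was -0.84 in mature (SE 0.30, unadjusted p = 0.0106, adjusted p = 0.999) and 0.68 in immature mTEC (SE 0.49, adjusted p = 0.814).

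The other factors with an unadjusted p under 0.05 were mostly from mature mTEC too. Foxi1 had 24.2 and 23.7 CPM in mature mTEC of Rbfox1 tKO mice and 17.9 and 15.99 CPM in the controls, at a log2 fold change of 0.50 (SE 0.19, unadjusted p = 0.0144). Hnf4g had 48.5 and 53.7 CPM there against 63.2 and 62.0 CPM, a log2 fold change of -0.29 (SE 0.12, unadjusted p = 0.0212). Myog was at 0.61 in that comparison (SE 0.27, unadjusted p = 0.0399) and at 0.83 in immature mTEC of the Rbfox2 line (SE 0.25, unadjusted p = 0.00423, adjusted p = 0.526), with 51.7 and 37.2 CPM in tKO against 21.0 and 31.2 CPM in control mice. Foxj1 was at -0.30 in mature mTEC of the Rbfox2 line (SE 0.14, unadjusted p = 0.0428). None passed the correction over all genes. Myog in mature mTEC of the Rbfox1 line was at 0.23 without control replicate 2, at 1.11 without control replicate 3 and at 0.37 without tKO replicate 2. Foxj1 in mature mTEC of the Rbfox2 line was at -0.10 without control replicate 1 and at -0.47 without control replicate 2.

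The errors show how closely these differences were estimated. Over both lines in mature mTEC the log2 fold change of Grhl3 was -0.08 (SE 0.09), of Hnf4g -0.21 (SE 0.09), of Foxj1 -0.02 (SE 0.11), of Foxi1 0.30 (SE 0.14), of Sox8 -0.15 (SE 0.14), of Hnf4a -0.09 (SE 0.17), of Myog 0.23 (SE 0.19) and of Trp73 -0.26 (SE 0.20). Some of these values join opposite signs in the 2 lines. Foxj1 was at 0.23 in the Rbfox1 line (SE 0.13) and -0.30 in the Rbfox2 line (SE 0.14). Hnf4a was at 0.21 (SE 0.21) and -0.46 (SE 0.24) in these lines. These estimates are all less than the 2-fold threshold. A call needed more than that threshold and a low p after adjustment over all genes. Differences well above 1 standard error could therefore be missed too. Rbfox1 in mature mTEC of the Rbfox1 line, at -0.66 (SE 0.14), was not called (edgeR adjusted p = 0.242). In immature mTEC, where counts were fewer, the standard errors over both lines ran from 0.15 for Foxj1 to 0.49 for Foxa2. The genes of the outside cell types gave no call in these comparisons, and no other listed factor had an adjusted p under 0.05. Of the listed mTEC markers only Foxn1, the locus that carries Cre in the tKO mice, did so, at 0.68 over both lines in mature mTEC (SE 0.06, adjusted p = 2.90e-06), under the fold threshold.

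To see which genes varied with each factor beyond the difference between the stages, the mean of each population was subtracted from log2(CPM + 0.5) and Pearson's r was taken over the 16 libraries, against the 21028 genes with a mean of at least 1 CPM in a population. With so many genes, high values of r occur in any list of the nearest ones, and the libraries share mice, lines and depth. For Foxj1 the 3 nearest genes were Deup1 (r = 0.938), which acts in making the many centrioles of multiciliated cells, Chuk (0.929), a kinase of the NF-kappaB pathway, and Dynlrb2 (0.920), a dynein light chain that was also on the list of ciliated cell genes. Without the 2 libraries farthest from the median of Foxj1 these were 0.913, 0.903 and 0.902, and Spearman's rho was 0.935, 0.944 and 0.882. All 10 ciliated cell genes had a positive r with Foxj1, from 0.110 to 0.920 with a median of 0.660, while the median over all genes was 0.08 and the 95th percentile 0.668. With the mean of each line's population subtracted in place of that of the population, a choice made after the data were seen, the median was 0.494. Trp73, in contrast, had a median r of 0.02 with the same genes, and 0.296 with the centring within lines.

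**Figure D5:**
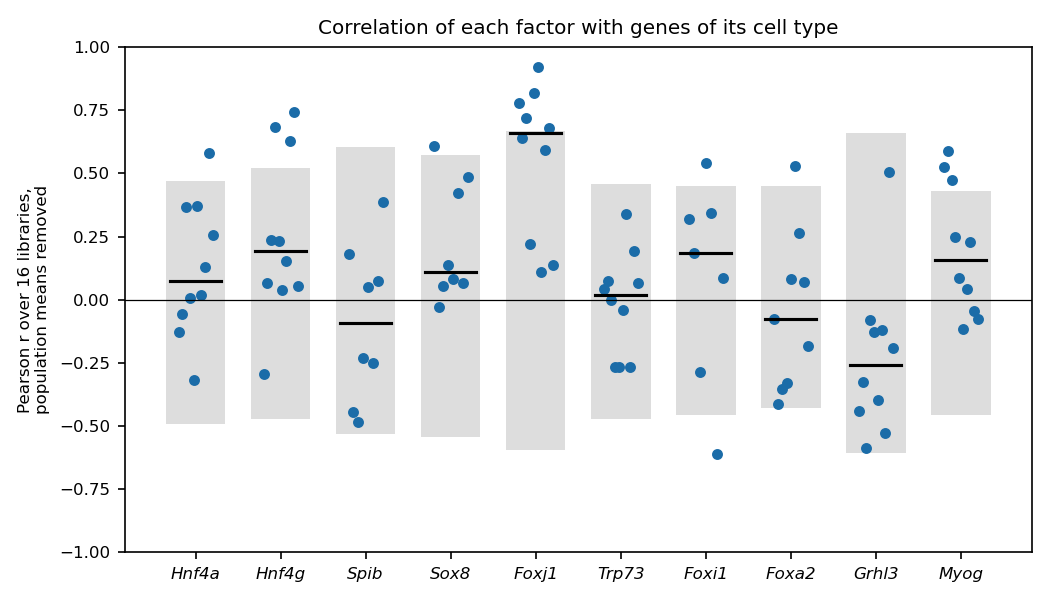
Pearson's r of each factor with the genes of its outside cell type (dots) over 16 libraries after the mean of each population was removed, with the median of the dots (bar) and the 5th to 95th percentile of r over all 21028 genes (grey). The ciliated cell genes lie above 0 with Foxj1, up to 0.920, and most of those of the other factors lie within the grey range, with 3 above it for Hnf4g and 3 for Myog.

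For the other factors the median r with the genes of their cell type was nearer to 0. It was 0.193 for Hnf4g and 0.07 for Hnf4a with the enterocyte genes, and Muc13 was the nearest of these to both (0.741 and 0.582). With Hnf4g 9 of 10 had a positive r, and 3 of them, Muc13, Apob (0.682) and Lypd8 (0.629), lay above the 95th percentile over all genes of 0.522. The median was 0.183 for Foxi1 with the ionocyte genes, of which Bsnd was nearest (0.540), 0.158 for Myog with the muscle genes, 0.108 for Sox8, with 7 of 8 positive, and -0.09 for Spib with the microfold genes, and -0.08 for Foxa2 with the airway secretory genes. For Grhl3 it was -0.26 with the keratinocyte genes, of which 1 of 10 had a positive r. With the centring within lines the median was 0.07 for Hnf4g, 0.169 for Sox8, -0.189 for Spib and -0.09 for Grhl3, and that of Foxa2 changed sign to 0.03. The 3 nearest genes of all were Kif1a (0.886), Tll2 (0.859) and Krt90 (0.843) for Hnf4a, 9330159M07Rik (0.856), Gm15663 (0.841) and Havcr1 (0.838) for Hnf4g, and Msh5 (0.926), the assembled locus MSTRG.53115 (0.890) and Tbc1d2b (0.883) for Spib. They were Snap91 (0.891), Atg4d (0.891) and Zfp108 (0.883) for Sox8, Dstyk (0.876), MSTRG.98676 (0.839) and Man1a2 (0.797) for Trp73, and Zmynd19 (0.897), Cdkn3 (0.8291) and D730001G18Rik (0.8286) for Foxi1. For Foxa2 they were Aktip (0.867), Prkg1 (0.831) and Rpgrip1 (0.831), for Grhl3 Icam5 (0.911), Pank4 (0.898) and Gramd1a (0.895), and for Myog Gm9347 (0.808), Gm20531 (0.793) and Klk15 (0.789). Without the 2 farthest libraries the r of these 27 genes lay between 0.495 and 0.871.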

How the data were processed

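Gene expression was measured by stranded, paired-end RNA-seq. The values are counts of reads per gene, deposited by the authors in 1 table without normalization, after removal of duplicate and unmapped reads and down-sampling to a fixed number for each population. Named in the submitters' processing notes are the build mm10, featureCounts 1.6.0, Picard 2.10.9 and HISAT2 2.1.0. A strand setting for the counting is not named there. Names, coordinates and exon lengths were taken from GENCODE M21 (GRCm38), and promoter windows from RefSeq.

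Quasi-likelihood tests were run in edgeR 4.0.16 (R 4.3.3), after filterByExpr with minimum count 10 and scaling by TMM. Mature and immature mTEC were compared within control or tKO mice with line as a covariate, tKO and control mice within each population, in each line (from a fit of the 4 conditions) and over both lines with line as a covariate. The interaction was fitted on all 16 libraries. The replicate numbers pair mature and immature libraries because they come from the same mouse (correlation of their deviations 0.0889 to 0.164). Single factors were also compared within mice by an exact two-sided sign-flip test on log2(CPM + 0.5), in Python 3.11.15. The 2 libraries of a condition differed by more than counting noise (chi-square of 1.78 to 2.74 per degree of freedom). The tests were tried on simulated data with known changes. The factors, the gene lists and the tests were chosen with earlier results of these data known. Every factor is named in the text. Of each other list, up to 3 called genes with the largest fold change in control mice are named by rule, with Rbfox1, Rbfox2, Foxn1 and the 3 genes nearest to each factor. Some genes that this rule names are not reported here. Other genes named from the lists were chosen after their values were seen. Alternatives were DESeq2 1.42.0, other scalings and filters, no fold threshold, all 16 libraries in 1 fit, a replicate block and each library left out.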

Additional observations from a re-analysis of the deposited data

How the results depend on the processing

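The number of factors called in control mice was 6 under 14 of 16 alternatives and 7 without the fold threshold. In tKO mice it was 6 under 9, 7 under 5, and 8 without the fold threshold. Leaving out 1 library gave 6 in control mice and 6 to 7 in tKO mice. With at least 10 counts in every library 2 of 4 tested factors were called in control mice and 3 of 5 in tKO mice, since the low factors were then not tested. Of all genes, 2148 of 11071 tested in control and 2167 of 10792 tested in tKO mice were called under that filter. In the main fits these were 6282 of 16750 and 6269 of 16578, and 11231 and 10955 of the same genes without the fold threshold. With mouse as a replicate block 6 factors were called in control and 6 in tKO mice. In the comparisons of tKO with control mice, and in the interaction, 0 factors were called under any alternative, the replicate block included. There same-numbered mice of a line share a number and their sex, and the methods name littermate controls without tying a number to a litter (correlations 0.0349 to 0.147). No sign of a factor changed in the fits of maturation in control or in tKO mice. The signs that changed in the interaction or over both lines belonged to differences that were not called. In the interaction, leaving out 1 library moved Hnf4g between -0.40 and 0.56, Foxi1 between -0.29 and 0.66 and Myog between -0.22 and 0.23, and without a filter Myog was at 0.00712. Over both lines it moved Foxj1 in mature mTEC between -0.15 and 0.10, and in immature mTEC Trp73 between -0.22 and 0.0298 and Foxi1 between -0.17 and 0.45. In single lines 12 of 34 differences of a factor between tKO and control mice had either sign over the alternatives, none of them called. Foxa2 in immature mTEC of the Rbfox2 line had the widest range, from -2.18 without tKO replicate 1 to 1.42 without tKO replicate 2. Within mice, in splits chosen after seeing the data, the Rbfox1 line alone gave 0.20 for Trp73 and the Rbfox2 line alone 0.39 for Foxa2. The cause was not tested. The depth of immature libraries limits Hnf4a, Spib and Foxa2, which had 0 to 15 counts there. In the interaction 23 of 51906 genes tested were called without a filter and 49 of 17442 with the block, against 0 of 17442 in the main fit. Without a filter the median log2 fold change of all genes in control mice was 1.25, against 0.04.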
